A study of Mus musculus with 6 samples.

Results

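Activins and bone morphogenetic proteins (BMPs) are secreted ligands of the TGF-beta superfamily, and 10 genes of the activin and BMP systems were followed in mouse liver: the activin subunits Inhba, Inhbb, Inhbc and Inhbe, the activin-binding protein Fst, the ligands Bmp2, Bmp4, Bmp5 and Bmp7, and the pseudoreceptor Bambi. They were chosen by gene name on an Agilent single-dye array with 27962 gene names, which gave 16 probes (52 spots) of the 41174 probes (43379 spots) that are not controls. The livers came from male C57BL/6J mice, an inbred laboratory strain, that were 8 weeks old at allocation, spent 12 weeks on a diet and were 20 weeks old at sampling. Mice on the CFD diet received 0.17% methionine with neither choline nor folic acid, in a diet that is supplemented with iron and built from L-amino acids (3 arrays). Mice on the control diet received this diet with 0.4% methionine, with choline bitartrate (0.3%) and with folic acid (2 mg/kg), on 3 arrays. Whole liver was measured, so fewer cells of a type and less RNA per cell cannot be told apart. Replicates are numbered in the labels without a statement that each is a separate mouse, so the spread that p-values rest on is that among these samples and may be technical.

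Ligands of both systems bind pairs of type I and type II serine/threonine kinase receptors. Activins signal mainly through SMAD2 and SMAD3, and BMPs through SMAD1, SMAD5 and SMAD9, each with SMAD4. Activins are dimers of the beta subunits encoded by the Inhb genes, and follistatin, the product of Fst, binds and neutralises them. In liver, BMP signalling to hepatocytes drives the iron hormone hepcidin (Hamp), and activins restrain the growth of hepatocytes.

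Values are given as scaled signals, the background-subtracted spot intensity with each array's 75th percentile set to 1000. Differences are log2 differences, CFD diet minus control, with the standard error of limma, and a probe was called at an adjusted p below 0.05 over all tested probes. The 3 slides each carried 1 CFD diet and 1 control array of the same replicate number, and differences are also given within slides. Probes well above background numbered 23626 to 29095 per CFD diet array and 21719 to 26320 per control array, and 0 spots were saturated. Across probes, which are not independent replicates, arrays correlated at 0.981 to 0.990 within the CFD diet group, at 0.989 to 0.993 within the control group and at 0.914 to 0.952 between the groups. The median difference of all tested probes was -0.12, with 5191 higher and 6475 lower. Scaling to the array median instead moved that median to -0.33 and the split to 3984 higher and 8864 lower, and it changed no call among the 10 genes.

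Markers of liver cell types were read beside the 10 genes. The summed scaled signal of 9 hepatocyte markers, divided by 1000 here and in the sums below, was 1402, 2184 and 1412 on CFD diet arrays 1 to 3, against 2308, 2725 and 2638 on control arrays 1 to 3, and 6 of the 9 fell. Without Alb, the brightest of them, the sum was 823, 1141 and 795 on the CFD diet arrays, against 1499, 1543 and 1561 on the control arrays. All 12 markers of stellate cells and myofibroblasts rose, with a summed signal of 68.1 to 89.0 on the CFD diet and 20.9 to 23.8 on the control diet. Cholangiocyte markers summed to 89.4 to 123.6 on the CFD diet and 6.36 to 9.54 on the control diet, with 7 of 9 higher. Most of that sum is Spp1, which macrophages also make, and without it the range was 5.02 to 6.98 on the CFD diet and 1.16 to 1.56 on the control diet. Sums for stellate cells, myofibroblasts and cholangiocytes were thus higher on every CFD diet array, and the hepatocyte sum was lower on every one. Endothelial markers summed to 34.4 to 40.2 on the CFD diet and 46.1 to 49.4 on the control diet, with 2 of 10 higher and 4 lower. Macrophage markers (6 of 10 higher, 2 lower) summed to 193 to 244 on the CFD diet and 114 to 153 on the control diet. Of 6 mesothelial markers 4 were higher, but nearly all of their summed signal is Krt8, a keratin that hepatocytes and ducts also make. Without Krt8 the sum was 2.08 to 3.61 on the CFD diet and 0.313 to 1.80 on the control diet. Lymphocyte markers (0 of 6 higher, 1 lower) summed to 0.600 to 0.906 on the CFD diet and 0.854 to 1.148 on the control diet. The part of these markers in the results on single genes was not tested.

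Of the 16 probes, 12 passed the filter, which asks that every array of at least 1 diet show a signal well above background, and each of the 10 genes had at least 1 of them. All 12 were well above background on all 6 arrays. Of these 12 probes 9 were called (75%), where 49.7% of all 23476 tested probes were called. The called probes were 2 higher (Inhbb and Bambi) and 7 lower, where 22.1% of all tested probes were higher and 27.6% lower. By gene, 5 fell (Inhba, Inhbc, Inhbe, Bmp2 and Bmp7), 2 rose and 3 were not called (Fst, Bmp4 and Bmp5). The diets did not overlap on 9 of the 12 probes, where 61.6% of all tested probes did not overlap. The median difference of the 12 probes was -0.69.

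**Figure D1:**
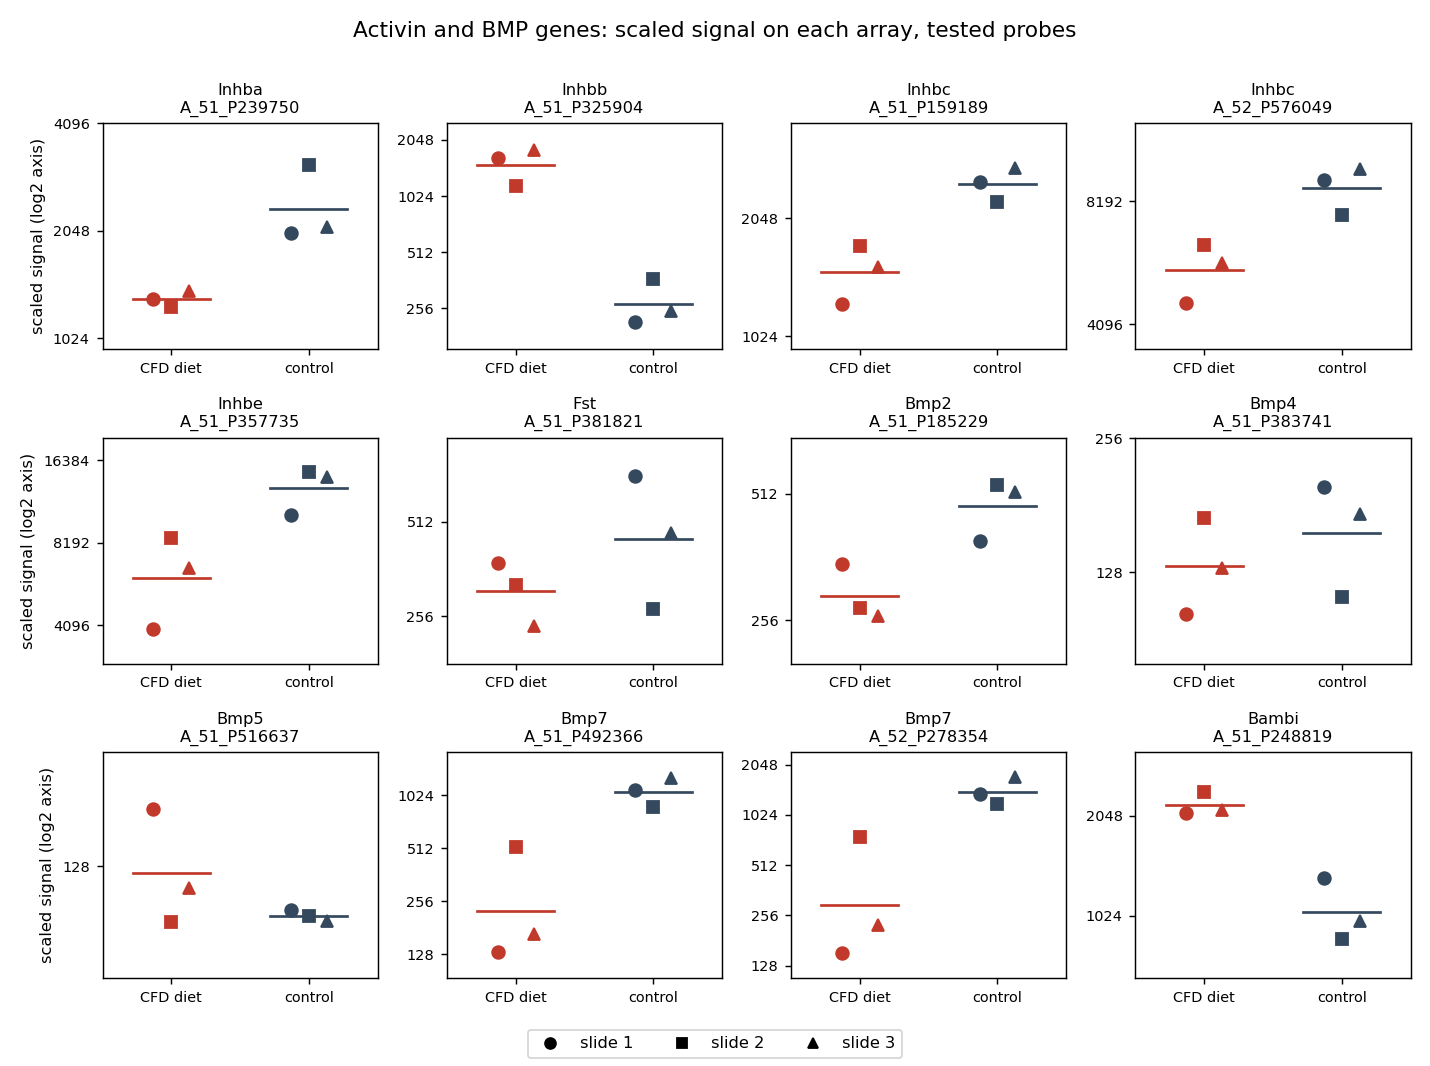
Scaled signal (log2 axis) of the 12 tested probes on every array, CFD diet left and control right. Symbols mark the slide and horizontal lines the mean of the log2 values of a diet (n = 3 arrays). Inhbb and Bambi lie higher on all CFD diet arrays, while the Bmp7 probes show 1 CFD diet array, on slide 2, between the other CFD diet arrays and the controls.

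Inhbb, which encodes the beta-B subunit of activin B, was higher on the CFD diet. Its tested probe (A_51_P325904, chr1:119276025-119276084, minus strand, build mm7 of the file headers) gave 1629.7, 1153 and 1809.8 in CFD diet livers, against 215, 366 and 248 in control livers. Every CFD diet array was above every control array. The difference was 2.48 ± 0.25 (SE, n = 3 each; adjusted p = 0.000626), and within slides 1 to 3 it was 2.92, 1.65 and 2.87. CFD diet array 2 had the lowest Inhbb signal of its group, and without it the difference was 2.67. That array also had the highest hepatocyte, endothelial, macrophage and lymphocyte marker sums of its group. The part of these cells in its Inhbb signal was not tested.

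A second Inhbb probe (A_52_P152847, chr1:119278359-119278418, minus strand) was dim and was not tested. It gave 81.8, 27.9 and 51.5 in CFD diet livers, against 22.3, 22.5 and 21.6 in control livers, and cleared the background threshold on CFD diet arrays 1 and 3 and on control array 1. Its order of the diets was that of the brighter probe, but with no filter on dim probes its difference was not called (1.14 ± 0.40 on the log2 scale, adjusted p = 0.108).

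The promoters of Inhbb, Inhbe and Inhbc are shown because Inhbb rose while Inhbe and Inhbc, which are neighbours, both fell. Windows run from 250 bases before the start site to 50 after it and come from RefSeq on GRCm38.p6, which was used for 6 of the 10 genes. Inhbb lies at chr1:119422199-119422498, Inhbe at chr10:127351799-127352098 and Inhbc at chr10:127370499-127370798, all on the minus strand. Capitals mark motif matches.
Inhbb: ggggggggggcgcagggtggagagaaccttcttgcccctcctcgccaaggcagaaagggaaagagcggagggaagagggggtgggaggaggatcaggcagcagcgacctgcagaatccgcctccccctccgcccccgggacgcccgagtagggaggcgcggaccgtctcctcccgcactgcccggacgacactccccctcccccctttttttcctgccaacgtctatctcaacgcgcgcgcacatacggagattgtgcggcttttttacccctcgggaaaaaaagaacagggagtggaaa
Inhbe: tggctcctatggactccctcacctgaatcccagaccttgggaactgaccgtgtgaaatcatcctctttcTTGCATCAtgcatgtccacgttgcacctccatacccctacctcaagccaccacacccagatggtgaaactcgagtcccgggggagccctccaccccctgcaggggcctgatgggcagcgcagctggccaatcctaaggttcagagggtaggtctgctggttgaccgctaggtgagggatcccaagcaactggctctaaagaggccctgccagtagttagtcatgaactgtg
Inhbc: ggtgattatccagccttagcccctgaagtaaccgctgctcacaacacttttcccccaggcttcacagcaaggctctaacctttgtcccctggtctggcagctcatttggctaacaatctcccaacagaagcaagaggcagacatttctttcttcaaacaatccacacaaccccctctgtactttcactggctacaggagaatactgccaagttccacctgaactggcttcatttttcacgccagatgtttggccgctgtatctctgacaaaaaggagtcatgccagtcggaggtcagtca
Both strands were searched for TGATGNAA, the composite element of ATF4 and C/EBP factors, for TGANTCA, which covers the AP-1 element, and for GGCGCC, a GC-rich element of BMP SMADs. Inhbe held TGATGNAA on the other strand, read as TTGCATCA with its first base at position -181 from the start site. Bmp5 held it as TTCCATCA at -249, and the windows of the 6 genes held no other match to the 3 motifs. Of 32851 mouse promoter windows of this length, 3.97% held TGATGNAA, 7.81% TGANTCA and 11.9% GGCGCC.

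Inhbc and Inhbe, which encode the beta-C and beta-E subunits made mainly by hepatocytes, fell on the CFD diet. They lie beside each other on chromosome 10, with 0 genes annotated between them. The first Inhbc probe (A_51_P159189, chr10:126858696-126858755, minus strand) gave 1236, 1738 and 1541 in CFD diet livers, against 2531, 2248 and 2753 in control livers. The second (A_52_P576049, chr10:126858205-126858264, minus strand) gave 4616, 6394 and 5775 in CFD diet livers, against 9225, 7569.9 and 9794 in control livers. Neither probe showed an overlap between the diets. The differences were -0.75 ± 0.17 (SE, adjusted p = 0.00993) for the first and -0.67 ± 0.17 (SE, adjusted p = 0.0176) for the second. Within slides 1 to 3 the first probe differed by -1.03, -0.37 and -0.84, and the second by -1.0, -0.24 and -0.76. The call of the second probe was lost without control array 1 (-0.64, adjusted p = 0.0554) and without control array 3 (-0.59, adjusted p = 0.0686), and also with no filter on dim probes (adjusted p = 0.0716).

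The Inhbe probe (A_51_P357735, chr10:126851059-126851118, minus strand) gave 3953, 8529 and 6635 in CFD diet livers, against 10364, 14806 and 14149.9 in control livers. All CFD diet values lay below the control values. The difference was -1.09 ± 0.30 (SE, adjusted p = 0.0213), and it was -1.39, -0.80 and -1.09 within slides 1 to 3. The Inhbe call was lost without CFD diet array 3 (-1.16, adjusted p = 0.0505), control array 2 (-1.0, adjusted p = 0.0645) or control array 3 (-1.03, adjusted p = 0.0672), and with no filter on dim probes (adjusted p = 0.0759). CFD diet array 2 had the highest Inhbc and Inhbe signals of its group. It also had the highest hepatocyte, endothelial, macrophage and lymphocyte marker sums of its group, and the part of these cells was not tested. Without that array the differences were -0.86 and -0.77 for the Inhbc probes and -1.34 for Inhbe.

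Inhba, which encodes the beta-A subunit of activin A, fell. Its probe (A_51_P239750, chr13:15394279-15394338, plus strand) gave 1318, 1248 and 1393 in CFD diet livers, against 2012, 3131 and 2093 in control livers. The CFD diet arrays lay close together and below all control arrays, of which array 2 stood highest. The difference was -0.84 ± 0.19 (SE, adjusted p = 0.0109), with -0.61, -1.33 and -0.59 within slides 1 to 3. Leaving out 1 array at a time gave differences between -0.96 and -0.64, and the call held each time.

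Fst was not called. Its probe (A_51_P381821, chr13:111626922-111627594, minus strand) gave 378, 322 and 239 in CFD diet livers, against 717, 271 and 471 in control livers, and the diets overlapped. The difference was -0.55 ± 0.36 (SE, adjusted p = 0.241), with a 95% interval of -1.41 to 0.31 that spans falls and rises. Within slides 1 to 3 it was -0.92, 0.25 and -0.98. Without control array 1 the Fst difference was -0.22 (adjusted p = 0.600), and without control array 2 it was called (-0.92, adjusted p = 0.0408).

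Bmp7 gave the largest fall among the tested probes of the 10 genes. Bmp7 belongs with Bmp5 to a subgroup of closely related BMPs. Its first probe (A_51_P492366, chr2:172614169-172614228, minus strand) gave 131, 523 and 167 in CFD diet livers, against 1096, 882 and 1286 in control livers. Its second probe (A_52_P278354, chr2:172614090-172614149, minus strand) gave 152, 754 and 223 in CFD diet livers, against 1363, 1194 and 1721 in control livers. On both probes the diets did not overlap, and CFD diet array 2 stood well above the other CFD diet arrays. The differences were -2.25 ± 0.50 (SE, adjusted p = 0.00961) and -2.26 ± 0.56 (SE, adjusted p = 0.0145). Within slides 1 to 3 they were -3.06, -0.75 and -2.95 for the first probe and -3.17, -0.66 and -2.95 for the second. Without CFD diet array 2 the Bmp7 differences were -2.86 and -2.94. That array also had the highest hepatocyte, endothelial, macrophage and lymphocyte marker sums of its group, and the part of these cells was not tested. The call of the second probe was lost without CFD diet array 3 (-2.06, adjusted p = 0.0534) and with no filter on dim probes (adjusted p = 0.0553).

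**Figure D2:**
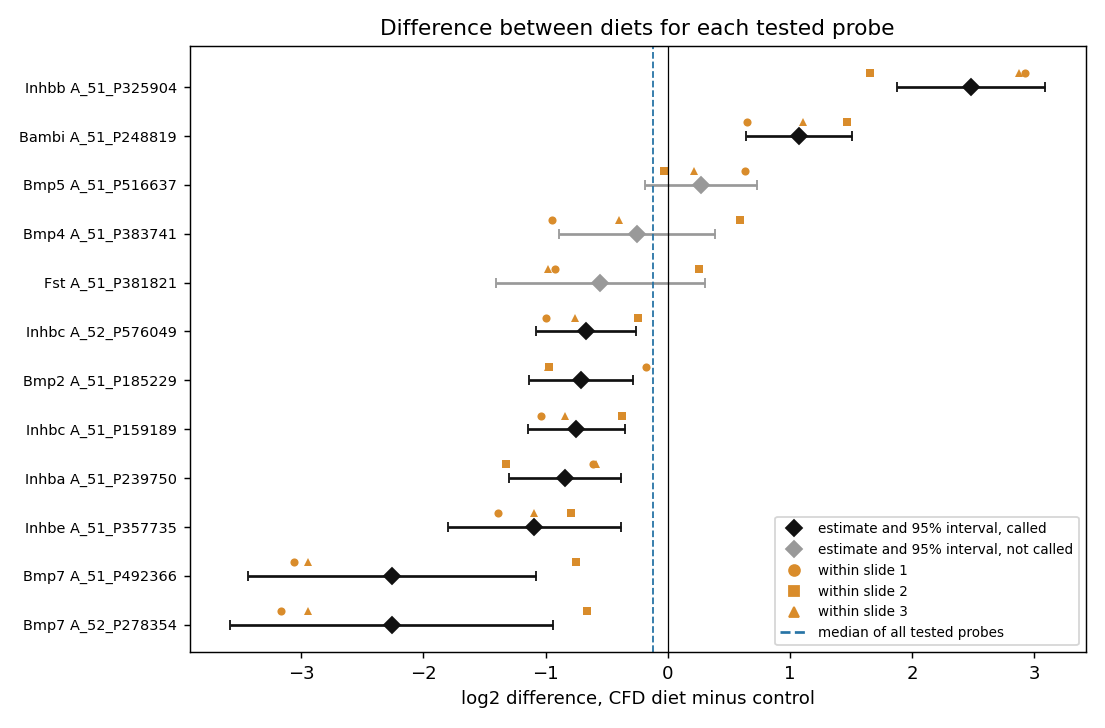
Log2 difference, CFD diet minus control, of the 12 tested probes (diamonds) with 95% intervals, n = 3 arrays per diet, and the differences within each slide (small symbols). The dashed line is the median of all tested probes, -0.12. Within-slide differences of Bmp7 run from -3.17 to -0.66, and those of Fst, Bmp4 and Bmp5 lie on both sides of 0.

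Bmp2, a ligand that sinusoidal endothelial cells supply to hepatocytes in mouse liver, fell. Its probe (A_51_P185229, chr2:133302098-133302157, plus strand) gave 349, 274 and 261 in CFD diet livers, against 395, 537 and 517 in control livers. The diets did not overlap, but CFD diet array 1 and control array 1, on the same slide, were close. The difference was -0.71 ± 0.18 (SE, adjusted p = 0.0163), with -0.18, -0.97 and -0.98 within slides 1 to 3. The endothelial marker sum given above also lay lower on every CFD diet array. Much of that sum is Clec4g, and without it the range was 18.5 to 19.9 on the CFD diet and 20.5 to 20.6 on the control diet. Of the 10 endothelial markers 4 fell, 2 rose and 4 were not called, and their part in the Bmp2 fall was not tested. The Bmp2 call was lost without CFD diet array 3 (-0.63, adjusted p = 0.0597), control array 2 (-0.63, adjusted p = 0.0535) or control array 3 (-0.66, adjusted p = 0.0618), with the slide as a block in the fit (-0.71, adjusted p = 0.0507), and with no filter on dim probes (adjusted p = 0.0669).

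Bmp4 and Bmp5, both BMP ligands, were not called. Bmp4 (A_51_P383741, chr14:41704207-41704266, minus strand) gave 103, 169.7 and 131 in CFD diet livers, against 199, 113 and 173 in control livers. Its difference was -0.25 ± 0.27 (SE, adjusted p = 0.460; 95% interval -0.89 to 0.38), and within slides 1 to 3 it was -0.95, 0.59 and -0.40. The diets overlapped, and the sign differed between slides. Bmp5 (A_51_P516637, chr9:75935778-75935837, plus strand) gave 164, 100.5 and 117 in CFD diet livers, against 106, 103 and 101 in control livers. Its difference was 0.27 ± 0.19 (SE, adjusted p = 0.278; 95% interval -0.19 to 0.73), with 0.63, -0.03 and 0.21 within slides 1 to 3. CFD diet array 1 alone stood clearly above the rest.

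Both remaining Bmp5 probes were too dim to be tested. A_52_P118356 (chr9:75865300-75876693, plus strand) gave 34.5, 19.5 and 17.9 in CFD diet livers, against 22.0, 19.0 and 15.9 in control livers, and was well above background on array 1 of each diet. A_51_P353264, placed on unassigned sequence of chromosome 9, was well above background on 0 arrays, at 1.73 to 6.28 on the CFD diet and 2.90 to 8.86 on the control diet. These probes set no direction for Bmp5.

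Bambi, a membrane protein that resembles a type I receptor without a kinase domain and dampens signalling by BMPs, activins and TGF-beta, was higher on the CFD diet. Its tested probe (A_51_P248819, chromosome 18) gave 2089, 2414 and 2129.5 in CFD diet livers, against 1332, 873 and 987 in control livers. The diets did not overlap. The difference was 1.08 ± 0.18 (SE, adjusted p = 0.00371), with 0.65, 1.47 and 1.11 within slides 1 to 3. Bambi is known from hepatic stellate cells, and the summed signal of the stellate cell and myofibroblast markers given above was also higher on every CFD diet array. So were the sums of the macrophage, cholangiocyte and mesothelial markers, and the part of any of these cells in the Bambi rise was not tested. The second Bambi probe (A_52_P634995) was well above background on 0 arrays, at 1.96 to 6.99 on the CFD diet and 3.27 to 9.64 on the control diet, so the rise rests on 1 probe.

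The probes of Bmp2, Bmp4, Bmp7 (the first) and Bambi are each printed 10 times on an array, which shows the technical spread of spots that share RNA, labelling and hybridisation. Of these 240 spots 11 were outliers by the scanner software and were left out. The coefficient of variation among the spots of an array was 2.97% to 8.59%. For Bmp7 the spots ran from 491 to 546 on CFD diet array 2, from 119 to 149 on CFD diet array 1 and from 155 to 180 on CFD diet array 3. The spots of CFD diet array 2 did not overlap those of the other CFD diet arrays. The control arrays had Bmp7 spots from 823 to 1361.

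**Figure D3:**
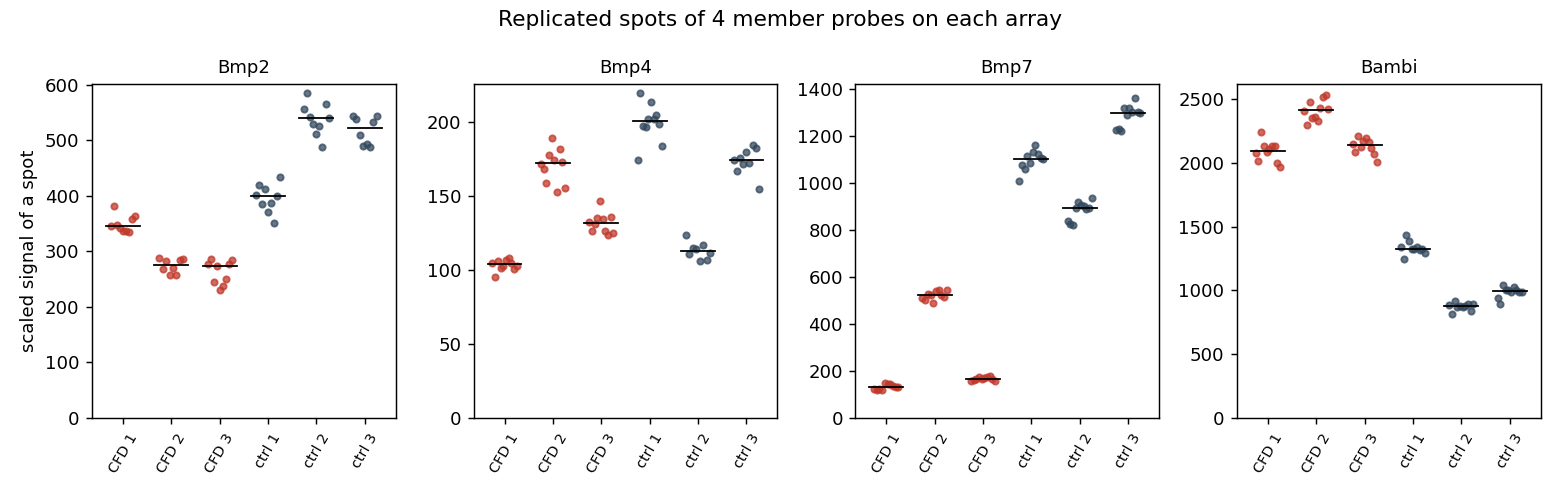
Scaled signal (linear axis from 0) of the single spots of the 4 probes printed 10 times per array, outlier spots left out, CFD diet arrays left of control arrays. Horizontal lines are medians. Spots of an array lie close together, and the Bmp7 spots of CFD diet array 2 stand apart from those of CFD diet arrays 1 and 3.

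Genes with the most similar pattern to each of the 10 over the 6 arrays were found by the root mean square of the differences between centred log2 values, over 15904 genes. Inhbb lay nearest to Ptger4, which encodes a prostaglandin E2 receptor, at 0.07, then to AK043717 at 0.08 and Lpl, which encodes lipoprotein lipase, at 0.13. Ptger4 and AK043717 were not well above background on all 6 arrays, and the Ptger4 call was lost after another background correction, normexp (0.50, adjusted p = 0.0928). Inhbc lay nearest to Slc35b4, which encodes a nucleotide sugar transporter, at 0.03, and Inhbe nearest to the kinase gene Nim1k at 0.10, with Mvk, which encodes mevalonate kinase, at 0.12. Inhba lay nearest to Mtus1 at 0.06 and Bambi to Gulp1, which encodes an adaptor protein for engulfment, at 0.08. Bmp7 lay nearest to the chemokine gene Ccl27a at 0.10, which gave 260, 1068 and 366 in CFD diet livers, against 2104, 1987 and 2486 in control livers. Among the genes not called, Fst lay nearest to AV030849 at 0.08, Bmp4 to Ccdc28b at 0.06 and Bmp5 to A430103D13Rik at 0.05.

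Other genes of the 2 systems were read in 8 lists, with each gene represented by its brightest tested probe. Of 103 genes on the lists 79 were tested, 29 rose, 17 fell and 33 were not called, and their median difference was 0.12. Over all 15904 genes 50.8% were called, 23.6% higher and 27.2% lower, with a median of -0.11. These shares are the background for the counts below, which are descriptions of the lists.

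Among other ligands, 12 of 22 were tested, 5 rose and 0 fell, with a median difference of 0.31. Bmp8b gave 134, 90.5 and 87.5 in CFD diet livers and was called higher (adjusted p = 0.000591). It was not well above background on any control array, and its CFD diet mean was 4.33-fold above the floor defined below. Gdf6, which was well above background on 1 of 3 control arrays, rose by 1.96 ± 0.36, and Gdf10 rose by 1.45 ± 0.20. The remaining rises, named after their values were seen, were Gdf15, a stress-induced hepatic cytokine (1.28 ± 0.27), and Gdf2, which encodes BMP9 (0.64 ± 0.15). Bmp6, the main iron-regulated BMP of liver, was not called (-0.20 ± 0.13, adjusted p = 0.240; also named after its value was seen). The Gdf6 rise was lost after normexp, at 0.50 (adjusted p = 0.107).

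Receptors changed little in number of calls: 8 of 10 were tested, 0 rose and 1 fell, with a median of -0.15. The fall was Acvr2b, a type II receptor of activins, with 159.7, 191 and 148 in CFD diet livers, against 361, 604 and 379.9 in control livers (-1.40 ± 0.23, adjusted p = 0.00317). Of 8 tested co-receptors and hepcidin cofactors 1 rose and 3 fell. Rgma, a BMP co-receptor, rose by 1.41 ± 0.23. Tfr2, the transferrin receptor of iron sensing, differed by -1.53 ± 0.23, Tmprss6, the protease that cleaves hemojuvelin, by -0.85 ± 0.21 and Neo1, which binds hemojuvelin, by -0.42 ± 0.11. The call of this Neo1 probe was lost under 6 of the alternatives, among them the slide as a block (adjusted p = 0.0513). Others were leaving out CFD diet array 1 (-0.40), CFD diet array 3 (-0.44), control array 2 (-0.39) or control array 3 (-0.41). The other tested Neo1 probe was also lower (-0.53, adjusted p = 0.0109). The Tmprss6 call was lost without control array 3 (-0.80, adjusted p = 0.0508) and with no filter on dim probes. Tfr2 and Tmprss6 are made by hepatocytes, whose marker sum was lower on every CFD diet array, and their part in these falls was not tested. Hjv (0.30 ± 0.14, adjusted p = 0.109) and Hfe (-0.26 ± 0.15, adjusted p = 0.197), named after their values were seen, were not called. The other tested Hfe probe was higher (1.04, adjusted p = 0.00455).

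Extracellular antagonists and binding proteins split: 13 of 19 were tested, 4 rose and 4 fell, with a median of -0.01. Fstl1, a follistatin-like glycoprotein, gave 3533, 3669 and 4816 in CFD diet livers, against 537, 494 and 419 in control livers (3.05 ± 0.17, adjusted p = 9.79e-05). Igsf1 rose by 2.85 ± 0.24 and Bmper, which binds BMPs, by 1.86 ± 0.25, but both were well above background on only 1 of 3 control arrays. When a signal above background was required on all 6 arrays, 1 antagonist was called higher. Among the falls were Kcp (-0.75 ± 0.14) and Chrd, which encodes chordin (-0.48 ± 0.15). The Chrd call was lost under 8 of the alternatives.

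All 5 tested proteases that mature these ligands or cut their antagonists fell, of 7 on the list, with a median of -0.85. Pcsk6, a proprotein convertase, gave 16292, 23797 and 17004 in CFD diet livers, against 41862, 47580.0 and 55196 in control livers (-1.35 ± 0.19, adjusted p = 0.00199). Bmp1, a metalloprotease that cuts chordin and is no BMP ligand, differed by -1.05 ± 0.20 and Pcsk5 by -0.85 ± 0.14. The other tested Bmp1 probe differed by less (-0.37, adjusted p = 0.0492). Furin, named after its values were seen because its probes disagree in size, differed by -0.39 on its brighter probe and by -3.39 on the other, and the call of the brighter probe was lost once the fit held slide as a block (adjusted p = 0.0716). Of the 12 SMADs and SMAD partners 1 rose and 4 fell, with a median of -0.29. Zfyve16 rose by 0.70 ± 0.19, while Zfyve9 (-1.01 ± 0.26) and the ubiquitin ligases Smurf1 (-0.57 ± 0.13) and Smurf2 (-0.48 ± 0.12) fell. The Zfyve16 call was lost under 5 of the alternatives, among them leaving out CFD diet array 1 (0.61), CFD diet array 3 (0.62) or control array 2 (0.59). The Smurf2 call was lost under 5, among them leaving out CFD diet array 3 (-0.46), control array 2 (-0.40) or control array 3 (-0.49). It was also lost for the mean of the tested Smurf2 probes (-0.50, adjusted p = 0.0511). The other tested Smurf2 probes gave -0.29 (adjusted p = 0.282) and -0.73 (adjusted p = 0.0395). Calls of Smurf1 and Zfyve9 were lost with no filter on dim probes, where 0 genes of this list were lower.

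Genes known as BMP targets rose or were not called: 7 of 11 tested rose and 0 fell, with a median of 0.83. Among those not called were Smad6 (0.42), Smad7 (0.18) and Msx1 (-0.54), named after their values were seen. The part of cell types in the rises of this list was not tested. Id1, an inhibitor of differentiation and a direct BMP target, gave 4484, 2407 and 2846 in CFD diet livers, against 794, 685 and 471 in control livers (2.30 ± 0.29, adjusted p = 0.00131). Runx2 was called higher (adjusted p = 0.000324). It was not well above background on any control array, and its CFD diet mean was 2.67-fold above the floor defined below. Its call was lost after normexp (0.48 on the log2 scale, adjusted p = 0.108). Hamp2 rose by 1.60 ± 0.38 (adjusted p = 0.0122), while Hamp, its near-identical paralog, was not called (0.36 ± 0.16, adjusted p = 0.0977; named after its value was seen), and the probes may not separate the transcripts of this pair. Genes known to respond to activin or TGF-beta showed 11 of 14 higher and 0 lower, with a median of 1.17. Ltbp2, a matrix protein, differed by 3.90 ± 0.25 and Cdkn1a, which encodes the cell cycle inhibitor p21, by 3.82 ± 0.30. Many genes of this list are also expressed by myofibroblasts, whose 12 tested markers all rose, and the part of those cells was not tested. Placing Bmp8b and Runx2 at their folds above the floor leaves the medians of their lists as given.

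**Figure D4:**
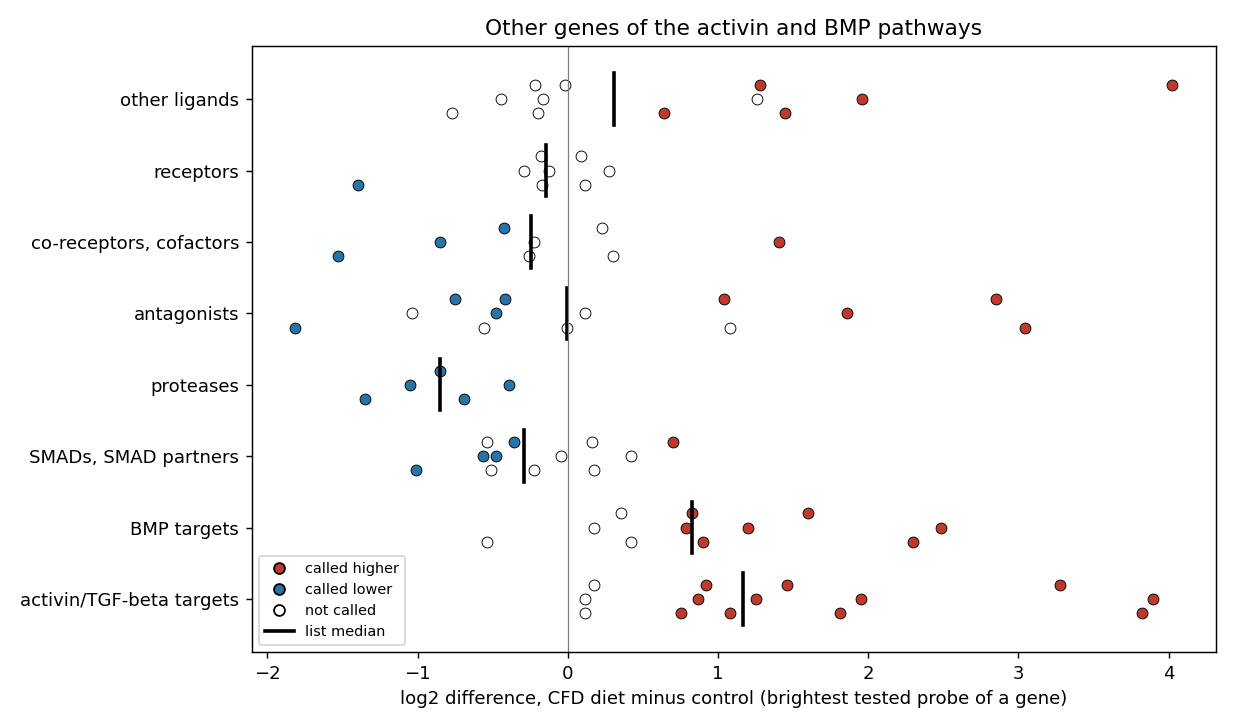
Log2 difference, CFD diet minus control, of the tested genes on the 8 lists (1 point per gene, by its brightest tested probe, n = 3 arrays per diet). Fill marks called rises, called falls and genes not called, and vertical bars mark list medians. Bmp8b and Runx2 are drawn at their fitted values, although neither was well above background on any control array. All 5 tested proteases lie below 0, and the called targets all lie above 0.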

How the data were processed

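Total RNA of mouse livers (3 CFD diet, 3 control) was measured on 1-colour Agilent arrays labelled with Cy3. The deposited scanner files hold an intensity per spot, background-subtracted by Feature Extraction 10.5.1.1 per the file headers (10.7 per the submitters' processing notes). The file headers place probes on build mm7, and whether a probe lies in an exon or UTR was not looked up, since no annotation of that build was used here. The deposited value table, an intensity table scaled by the authors to a 75th percentile near 1000, served as an alternative. By rank correlation (1 in each case) its columns hold other replicates of the same diet than the scanner files: its CFD diet 1, 2 and 3 equal scanner CFD diet 2, 3 and 1, and its control 1, 2 and 3 equal scanner control 2, 3 and 1. Scanner numbering is used, and which is intended stays unknown. There were 0 unmapped columns.

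Processed signals were put on the log2 scale minus each array's 75th percentile. Spots of a probe were averaged without control and outlier spots. The 23476 probes that every array of at least 1 diet measured well above background were tested in R 4.3.3 with limma 3.58.1 and Benjamini-Hochberg adjustment over all of them, after a test on simulated data. The number of arrays limits the precision. A fold above the floor compares the brighter group's mean with a floor in the dimmer group. The floor is the mean, over its arrays, of the probe's own signal or the array's lowest signal that is well above background, whichever is higher. Signals above that floor can still fail the background threshold, so such a fold is not a strict minimum. Gene names were updated through RefSeq for GRCm38.p6 (22951 probes by accession, 6659 with a current and 3109 with an older symbol, 8455 kept as in the file).

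The 10 genes, the gene lists and the cell type markers were chosen with earlier results of these data known. Named genes are the 10, up to 3 called rises and 3 called falls of each list, and the 3 genes nearest in pattern to each of the 10, and some of these are not reported here. Other names are marked where they occur. Alternatives were normexp with an offset of 50, median and quantile scaling, other filters on dim probes, the slide as a block, limma's trend and robust options, the value table, another rule for the probe of a gene, and leaving out each array.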

Additional observations from a re-analysis of the deposited data

How the results depend on the processing

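The rises of Inhbb and Bambi were called under all 14 alternatives, as were the falls of Inhba, the first Inhbc probe and the first Bmp7 probe. No log2 difference changed sign among those recomputed, which are the tested probes of the 10 genes and the genes that the naming rule chose. Member probes called higher numbered 2 and lower 7. Without the filter on dim probes 3 were lower, and leaving out 1 array gave 4 to 7 lower (4 without CFD diet array 3, and 4 without control array 3) and 2 higher. Among pathway genes 29 were higher and 17 lower. Without the filter 7 were lower, and leaving out 1 array gave 10 to 21 lower (10 without CFD diet array 3, 10 without control array 3) and 26 to 29 higher. Of all probes 5191 were higher and 6475 lower. Without the filter 3661 were lower, and leaving out 1 array gave 4163 to 7033 lower (4299 without CFD diet array 3, 4163 without control array 3) and 4167 to 5510 higher. Dropping the filter brings more probes into the adjustment and also into the spread estimate that limma shares over probes. Leaving out an array leaves fewer samples. Of 1012 log2 differences recomputed, 938 kept their side of the threshold, 71 lost the call and 3 gained it.

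Scaling to the array median moved the median of all tested probes to -0.33 and the calls to 3984 higher and 8864 lower. The probes of the 10 genes kept 2 higher and 7 lower.

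Replicates of the same number share a slide. Across probes their deviations from the diet means correlated at 0.0991, -0.0808 and -0.00074, and the main fit did not treat the number as a pairing. With 3 arrays per diet the deviations cancel within a diet, so these correlations are tied to each other. They cannot exclude slide effects on single probes. With the slide as a replicate block 2 member probes were higher and 6 lower, as Bmp2 was lost (adjusted p = 0.0507), 28 pathway genes were higher and 13 lower, and 4793 probes were higher and 5497 lower. CFD diet array 1 correlated best with control array 1 (0.0991), but CFD diet array 2 did so with control array 3 (0.155) and CFD diet array 3 with control array 2 (0.0456).

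Counts within small lists moved by over 1.5 times under some alternatives. With no filter, 0 SMADs or partners, 1 antagonist and 1 co-receptor or cofactor were lower. Requiring all 6 arrays above background left 1 antagonist and 3 other ligands higher. Normexp left 2 antagonists lower, and quantile scaling gave 2 receptors lower and 2 co-receptors higher, as did the mean of a gene's probes for co-receptors. The single SMAD partner called higher was lost (0) after median scaling, with no filter, and without CFD diet array 1, CFD diet array 3 or control array 2. Without CFD diet array 3, 1 antagonist and 2 SMADs or partners were lower, and without control array 3, 2 antagonists, 2 SMADs or partners and 1 co-receptor or cofactor were lower. Without control array 1, 2 antagonists were lower. Without CFD diet array 2, 2 other ligands were lower, and without control array 2, 1 was. The counts of proteases, BMP targets and activin or TGF-beta targets stayed within that range.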
